A study of Drosophila melanogaster with 21 samples.

Results

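The immune deficiency (Imd) pathway of Drosophila melanogaster detects peptidoglycan of the diaminopimelic acid type, found mainly in the cell walls of Gram-negative bacteria, and switches on genes for antimicrobial peptides. The receptor PGRP-LC passes the signal to the adaptor imd, which binds Fadd and the caspase Dredd. The kinase Tak1 and the IκB kinase complex, of which key (Kenny) is the regulatory subunit, then act on the NF-κB protein Rel (Relish). PGRP-LF, PGRP-LB and pirk hold the pathway in check. The 10 genes described here were taken by name from all 17555 annotated genes of the data. pirk had been chosen by its measured log2 fold changes in the knockout clones, which have opposite signs, so its values there are given as a description, with no test.

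RNA was measured in DL1 cells, a Drosophila cell line, in 21 samples that form 7 groups of 3. In the knockdown experiment, wild-type cells were bathed with 20 µg of double-stranded RNA for 60 min and harvested 48 h after serum medium was added back. The RNA targeted pum (Pum RNAi), Not1 (Not1 RNAi), Pop2 (Pop2 RNAi) or the bacterial gene LacZ (LacZ RNAi), the non-targeting control. In the knockout experiment, 2 clonal isolates with a knockout of pum (Pum KO1 and Pum KO2) were set against the parental wild-type line (WT), with no treatment by double-stranded RNA given in the labels. pum encodes Pumilio, an RNA-binding repressor of messenger RNAs, Not1 the scaffold of the CCR4-NOT deadenylase, and Pop2 one of its catalytic subunits. Each knockout group is 1 isolate, so the spread among its samples holds no variation between isolates. No bacterial stimulus is named in the labels, and the levels are therefore those of cells in culture medium.

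The authors deposited the mean normalized count of each group together with log2 fold changes, standard errors (SE) and adjusted p-values from DESeq2. A normalized count is a number of reads divided by the size factor of its library. The count in each single library was worked out from the digits of the group means, and all 10 genes could be resolved in all 7 groups. Libraries are lettered A, B and C from the largest to the smallest size factor of a group and cannot be matched to replicate numbers. They held 1543745 to 9017817 reads in resolved genes. Library C of LacZ RNAi and library C of Not1 RNAi, the shallowest ones, stood apart from the rest of their groups, with correlations of 0.920 to 0.932 with them where libraries of the other groups correlated at 0.986 or more. The number of calls in the knockdown experiment, and the values of the 10 genes in Not1 RNAi and Pop2 RNAi, are therefore also given by limma without this pair. The targeted genes were lower in their groups in the authors' deposited table: pum by 3.23-fold in Pum RNAi, 2.93-fold in Pum KO1 and 1.43-fold in Pum KO2, Not1 by 9.64-fold in Not1 RNAi and Pop2 by 20.2-fold in Pop2 RNAi. These are RNA levels and do not show how much protein was left.

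DL1 is kept as a model of hemocytes, the blood cells of the fly. srp, a GATA factor of hemocytes, had group means of 4271 to 6898 normalized counts, and all 14 hemocyte markers examined were above 0 in every group. NimC1, a phagocytosis receptor of larval plasmatocytes, was at 1.92 to 19.1. Of the 9 fat body markers, 5 or 6 were listed at 0 in each group. Hemocyte markers moved with the groups in both directions. By the authors' test 4 of 14 were higher and 2 lower in Not1 RNAi (25.7% and 24.2% of all tested genes), 4 higher and 3 lower in Pop2 RNAi (18.8% and 20.1%), 6 higher and 8 lower in Pum KO1 (22.9% and 25.5%) and 4 higher and 5 lower in Pum KO2 (21.3% and 23.5%). Hml, a hemocyte clotting protein, went from a mean of 760.7 in WT to 68.7 in Pum KO1 and 202.4 in Pum KO2. The marker crq went from 1420 to 312.8 and 305.7 and He from 916.8 to 193.9 and 256.6, and Ppn and drpr were also lower in both clones. In the clones vkg and Col4a1, the chains of type IV collagen, went the other way, from 28.9 to 196.4 and 376.7 and from 67.4 to 188.1 and 440.6, and srp and ush were also higher in both. eater, a phagocytosis receptor, went from 798.7 in LacZ RNAi to 136.9 in Not1 RNAi and 145.0 in Pop2 RNAi, and Hml from 30.41 to 13.93 and 14.75. Pxn (peroxidasin) rose in these knockdowns, from 37.3 to 214.5 and 230.4, as did drpr, an engulfment receptor, from 608.5 to 3220 and 1325, and Sr-CI, a scavenger receptor, from 3.89 to 64.9 and 16.8.

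Some markers of other cell types were expressed and moved as well. Over the 7 groups the summed level per kb was 4657.3 to 5784.3 (knockout experiment) and 2686.1 to 3664.0 (knockdown experiment) for the hemocyte list, 150 to 345 for 7 neuron markers, 6.77 to 303 for 6 germline markers, 22.9 to 49.9 for 8 gut markers, 6.63 to 18.2 for 6 muscle markers and 0.681 to 14.3 for the fat body list. The neuronal gene Syn went from a mean of 161 in LacZ RNAi to 1305 in Not1 RNAi and 861.2 in Pop2 RNAi, and from 247.3 in WT to 38.0 in Pum KO1 and 125.6 in Pum KO2. Of the other neuron markers, elav went from 1082 in WT to 1716 and 1878 in the clones and Appl from 522.9 to 107.1 and 157.1, and Appl from 139.1 in LacZ RNAi to 34.1 in Pop2 RNAi. aub, a germline gene, went from 889.4 in WT to 55.1 in Pum KO1 and 306 in Pum KO2, and from 94.2 in LacZ RNAi to 17.5 in Not1 RNAi and 22.5 in Pop2 RNAi. By the authors' test 2 of 4 tested neuron markers were higher in Not1 RNAi, and 1 was higher and 1 lower in Pop2 RNAi. In each clone 1 of 7 was higher and 2 were lower. The germline list had 1 lower call in each of these 4 comparisons, of 4 tested in the knockdowns and 5 in the clones. Of all tested genes, 25.7% were higher and 24.2% lower in Not1 RNAi, and 18.8% and 20.1% in Pop2 RNAi. These shares were 22.9% and 25.5% in Pum KO1 and 21.3% and 23.5% in Pum KO2. The remaining calls were all lower in a clone. Of 5 tested muscle markers, 1 was lower in Pum KO1 (Act57B) and 2 in Pum KO2 (Act57B, Mhc). Of 2 tested gut markers Amy-p was lower in Pum KO2 (71.1 to 30.6). Of 2 tested fat body markers apolpp was lower in Pum KO1 (112.3 to 67.2). No marker of any list was called in Pum RNAi, where 0.733% of all tested genes were called. Tested there were 14 hemocyte, 4 neuron, 3 germline, 2 gut, 2 muscle and 1 fat body markers. The part of these shifts in the results was not tested. In such bulk samples, fewer cells that express a gene and less RNA per cell cannot be told apart.

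The 10 genes were expressed at very different levels per length. In WT the order of mean normalized counts per kb of exon ran from PGRP-LC (842 ± 54.3, SD, n = 3) and key (634 ± 31.2) through Rel (301 ± 27.4) and Fadd (264 ± 22.9) to PGRP-LF (128 ± 4.94), Dredd (111 ± 7.58), Tak1 (100 ± 3.48), imd (86.6 ± 8.32), pirk (58.2 ± 9.12) and PGRP-LB (41.6 ± 4.69). Rel and Fadd overlapped between libraries, as did Dredd and Tak1, whereas the other neighbours in the order did not. PGRP-LC was above 91.7%, key above 88.9% and PGRP-LB above 36.4% of the 9623 genes with a mean of at least 1 in WT. In LacZ RNAi, key (537 ± 29.4 normalized counts per kb) and PGRP-LC (536 ± 177) could not be separated, and PGRP-LB was again the lowest (22.4 ± 7.81). The ratio of the highest to the lowest of the 10 genes was 20.2 in WT and 190 in Pum KO1, where PGRP-LB had 5.99 ± 3.15 normalized counts per kb.

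**Figure D1:**
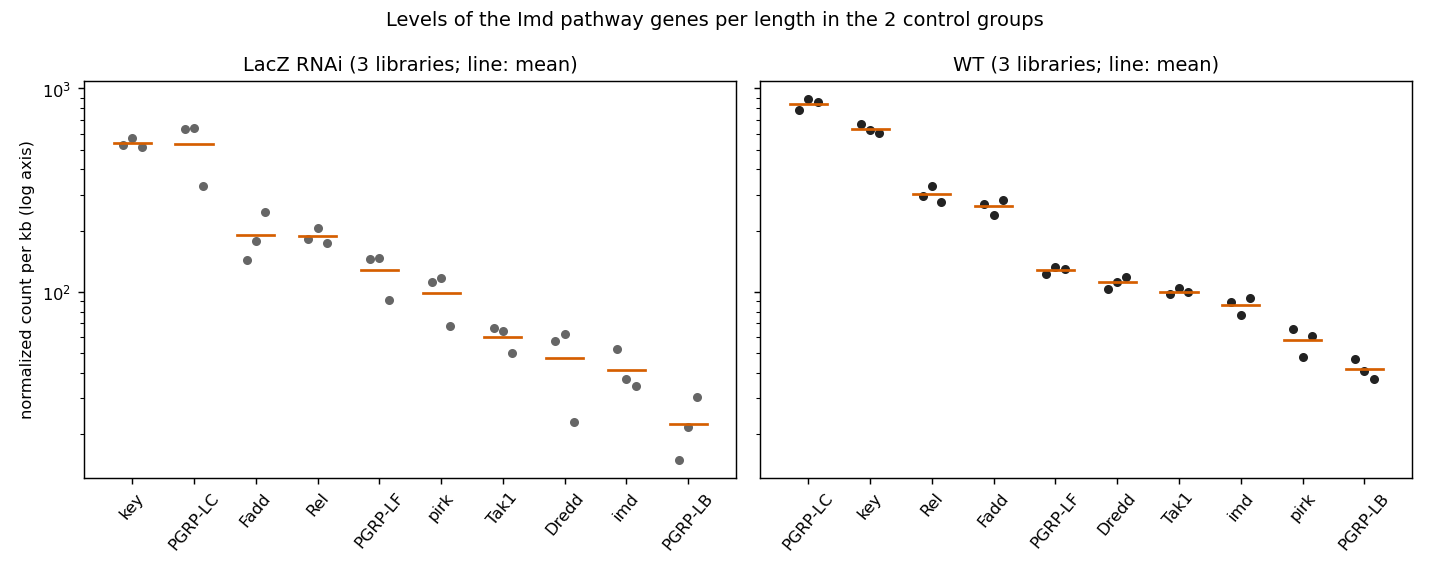
Normalized counts per kb of exon (log axis) of the 10 Imd pathway genes in LacZ RNAi (left) and WT (right), ordered by mean; points are the 3 libraries A, B and C from left to right and orange lines their means. PGRP-LC and key lead both groups (842 and 634 in WT) and PGRP-LB is last (41.6 in WT, 22.4 in LacZ RNAi).

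The number of the 10 genes that changed differed by comparison. The authors' test (adjusted p under 0.05) called none of the 10 in Pum RNAi against LacZ RNAi, where 0.733% of 8596 tested genes were called, 0.512% higher and 0.221% lower; 2 of the 10 had an unadjusted p under 0.05 by DESeq2, and 2 by limma. In Not1 RNAi it called 5 of 10 (50% of all 9051 tested genes, 25.7% higher and 24.2% lower), 3 higher (imd, Tak1, key) and 2 lower (Fadd, pirk). In Pop2 RNAi it called 7 of 10 (39.0% of all, 18.8% higher and 20.1% lower), 3 higher (imd, Tak1, key) and 4 lower (PGRP-LF, PGRP-LB, pirk, Fadd). Both knockdowns were set against the same LacZ RNAi libraries. With pirk left out, 6 of 9 were called in Pum KO1 against WT (48.4% of all 10156 tested genes, 22.9% higher and 25.5% lower), 1 higher (PGRP-LC) and 5 lower (PGRP-LF, PGRP-LB, imd, Tak1, Rel). In Pum KO2 5 of 9 were called (44.8% of all 9925, 21.3% higher and 23.5% lower), the 5 that were lower in Pum KO1. The share in Not1 RNAi is that of all tested genes. Counted another way, the 3 libraries of a group did not overlap those of its control for 2 of 10 genes in Pum RNAi (20.4% of 8466 genes), 4 in Not1 RNAi (49.2% of 8892), 7 in Pop2 RNAi (50.3% of 8923), 7 of 9 in Pum KO1 (58.6% of 9985) and 7 of 9 in Pum KO2 (57.5% of 9773).

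**Figure D2:**
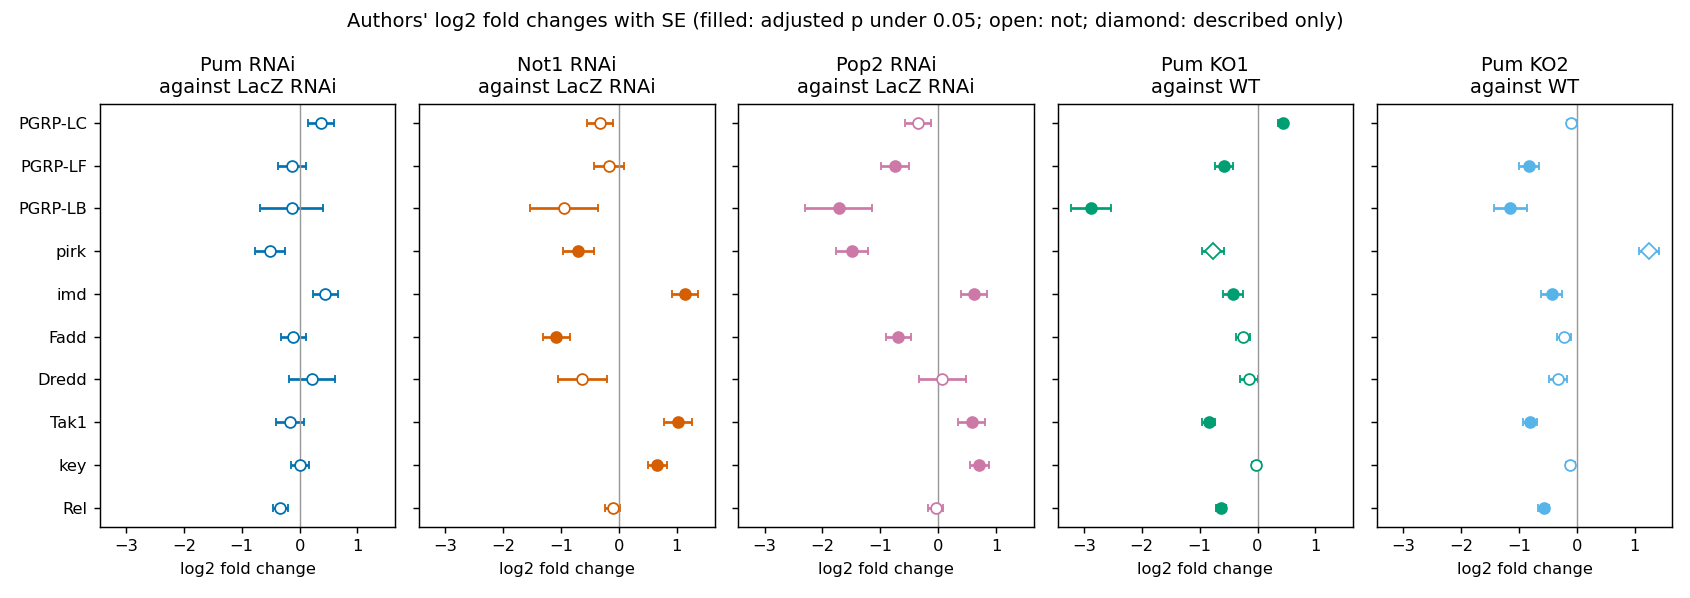
The authors' log2 fold changes (horizontal axis) with SE bars for each of the 10 genes in the 5 comparisons against LacZ RNAi or WT; filled circles passed an adjusted p of 0.05, open circles did not, and diamonds mark pirk in the clones, described without a test. imd, Tak1 and key lie to the right in Not1 RNAi and Pop2 RNAi, whereas imd, Tak1 and Rel lie to the left in both clones.

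Without the shallow pair of libraries, limma called 2 of 10 genes in Pum RNAi, both lower (8.35% of 7030 genes, 4.31% higher and 4.04% lower). It called 9 of 10 in Not1 RNAi, 3 higher and 6 lower (71.6% of genes, 36.5% higher and 35.2% lower), and 8 of 10 in Pop2 RNAi, 3 higher and 5 lower (65.6% of genes, 33.3% higher and 32.4% lower). The genes added were pirk and Rel in Pum RNAi, PGRP-LC, PGRP-LF, PGRP-LB and Dredd, all lower, in Not1 RNAi, and PGRP-LC, lower, in Pop2 RNAi. Counting error limits the rarest genes most: PGRP-LB rested on 9 to 16 reads per library in Pum KO1, and Dredd on 3 reads in library C of Not1 RNAi.

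**Figure D3:**
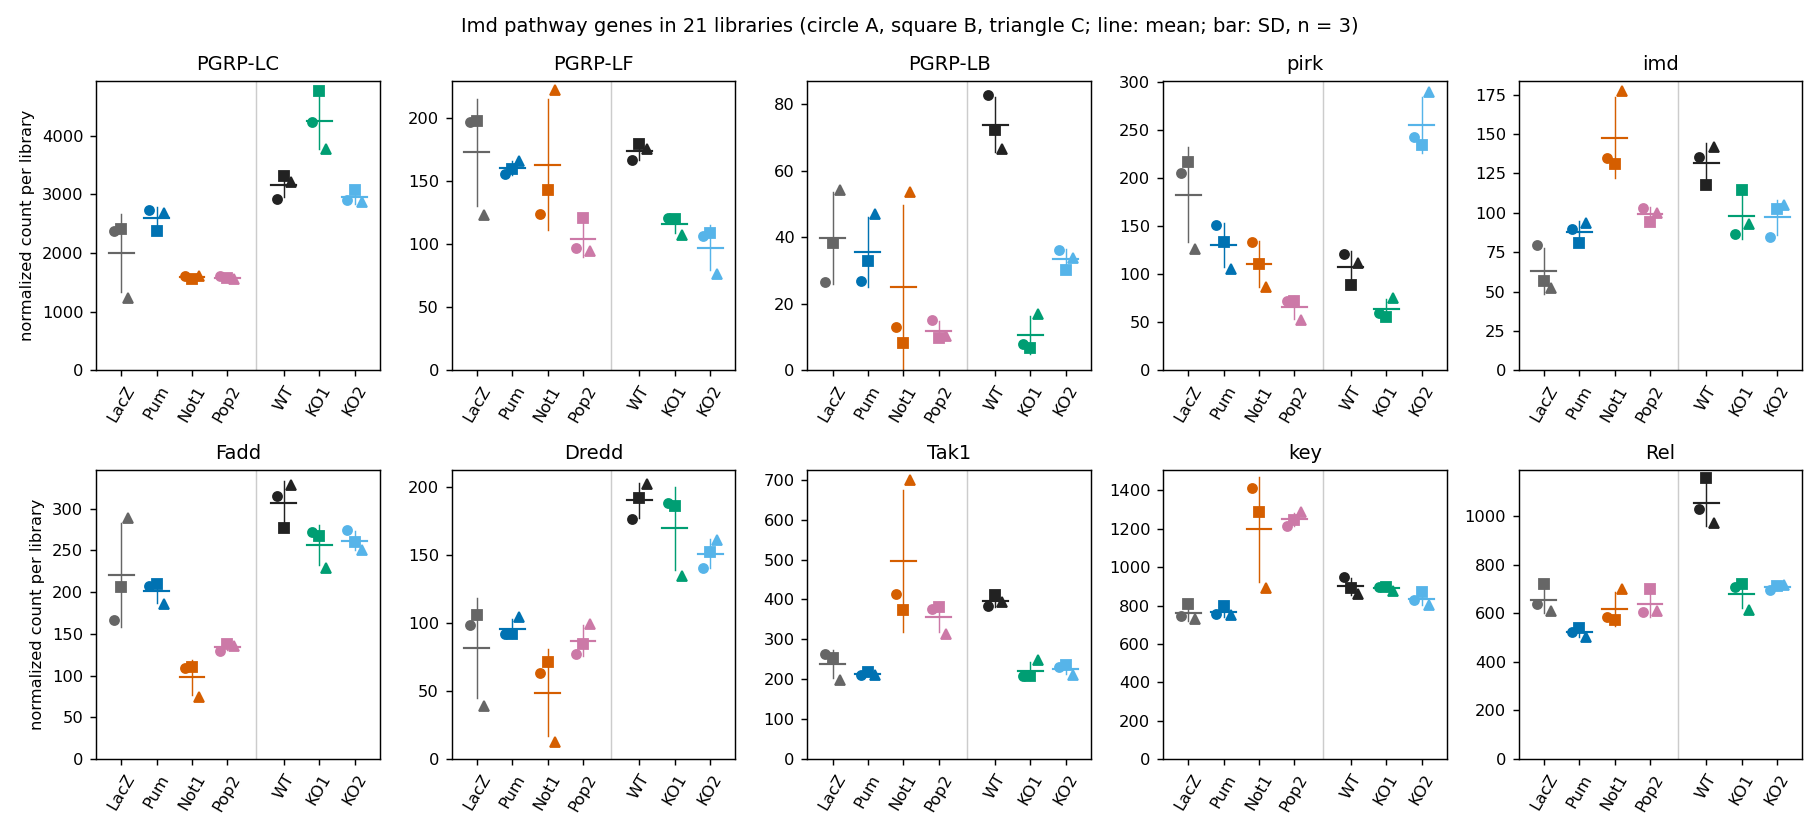
Normalized count of each of the 10 genes in each of the 21 libraries (circles A, squares B, triangles C), with the mean (horizontal line) and SD (vertical bar, n = 3, not drawn below 0); the grey line separates the separately normalized experiments and each panel has its own axis from 0. Library C of LacZ RNAi lies apart from A and B for PGRP-LC, PGRP-LF, pirk and Dredd, and library C of Not1 RNAi for Tak1, key, PGRP-LB and Dredd.

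PGRP-LC (FBgn0035976), the membrane receptor, lies on chromosome 3L at 9338810 to 9348336, plus strand (build dm6), and has 10 annotated transcripts; the deposited counts are per gene and do not separate its isoforms. In WT its 3 libraries had 2926, 3320 and 3208 normalized counts, in Pum KO1 4231, 4756 and 3779, and in Pum KO2 2906, 3070 and 2872. All libraries of Pum KO1 were above all of WT, and those of Pum KO2 overlapped WT. PGRP-LC rose 1.35-fold in Pum KO1 in the authors' deposited table (log2 0.43 ± 0.08 (SE), adjusted p = 6.01e-07, DESeq2). It did not pass in Pum KO2 (log2 -0.10 ± 0.08 (SE), adjusted p = 0.375, the authors' deposited table).

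The clones themselves differed in this receptor: its level was 0.52 ± 0.08 (SE), adjusted p = 2.57e-05 (limma) higher on the log2 scale in Pum KO1 than in Pum KO2, with a 95% interval of 0.36 to 0.69. In the knockdown experiment the libraries had 2375, 2401 and 1239 in LacZ RNAi, 2736, 2382 and 2680 in Pum RNAi, 1611, 1563 and 1614 in Not1 RNAi and 1607, 1579 and 1554 in Pop2 RNAi. The low LacZ RNAi value is that of library C, and through it LacZ RNAi overlapped Not1 RNAi and Pop2 RNAi. With all libraries the authors' deposited table gave log2 -0.33 ± 0.23 (SE), adjusted p = 0.215 in Not1 RNAi and -0.35 ± 0.22 (SE), adjusted p = 0.218 in Pop2 RNAi (DESeq2). When the shallow pair was left out, limma gave -0.59 ± 0.10 (SE), adjusted p = 2.74e-05 and -0.60 ± 0.09 (SE), adjusted p = 1.13e-05; leaving out LacZ RNAi library C alone was enough for the call in both.

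PGRP-LF (FBgn0035977) encodes a membrane protein that binds peptidoglycan receptors but has no signalling domain of its own, and it inhibits PGRP-LC. Its gene starts 1272 bases after the end of PGRP-LC on the same strand of 3L (9349609 to 9351489). Its libraries had 167, 179.9 and 176 normalized counts in WT, 121, 120.1 and 108 in Pum KO1 and 107, 109 and 76.6 in Pum KO2, with no overlap between either clone and WT. It fell 1.49-fold in Pum KO1 (log2 -0.58 ± 0.16 (SE), adjusted p = 0.00106, DESeq2) and 1.77-fold in Pum KO2 (log2 -0.83 ± 0.17 (SE), adjusted p = 4.64e-06, DESeq2), per the authors' deposited table.

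In the knockdown experiment PGRP-LF had 197, 198 and 124 normalized counts in LacZ RNAi, 156, 159.6 and 166 in Pum RNAi, 124, 143 and 222 in Not1 RNAi and 97.4, 121 and 94.8 in Pop2 RNAi. Only Pop2 RNAi lay wholly below the control among the 3 knockdowns. It fell 1.68-fold there (log2 -0.75 ± 0.25 (SE), adjusted p = 0.00966, DESeq2, the authors' deposited table). By limma this call was lost without LacZ RNAi library A (log2 -0.59) or B (-0.59) and without Pop2 RNAi library A (-0.66) or C (-0.64). Without library C of LacZ RNAi and of Not1 RNAi, limma gave -0.92 ± 0.13 (SE), adjusted p = 6.24e-06, in Pop2 RNAi, and in Not1 RNAi, where the authors' deposited table had no call (log2 -0.17), -0.56 ± 0.14 (SE), adjusted p = 0.0019. Of the 1355 exonic bases of PGRP-LF, 602 are shared with UGP on the opposite strand. The sources used here do not say whether reads were counted by strand. UGP was 1.56-fold lower in Not1 RNAi and 1.56-fold lower in Pop2 RNAi by the authors' deposited table, with no call for this gene in either clone.

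PGRP-LB (FBgn0037906; 3R, 11452849 to 11460552, minus strand) encodes an amidase that cuts peptidoglycan and so removes the ligand; it is itself a known target of the pathway. It had the largest fold change of the 10 genes. Its libraries had 82.8, 72.4 and 66.4 normalized counts in WT, 8.0, 6.84 and 17.0 in Pum KO1 and 36.2, 30.2 and 33.8 in Pum KO2. The 3 groups did not overlap, with Pum KO1 lowest and Pum KO2 between it and WT. In the authors' deposited table it fell 7.36-fold in Pum KO1 (log2 -2.88 ± 0.34 (SE), adjusted p = 2.64e-16, DESeq2) and 2.22-fold in Pum KO2 (log2 -1.15 ± 0.28 (SE), adjusted p = 0.000208, DESeq2). The clones differed from each other (Pum KO1 minus Pum KO2, log2 -1.66 ± 0.26 (SE), adjusted p = 4.17e-05, limma), with a 95% interval of -2.21 to -1.12.

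PGRP-LB was also lower in Pop2 RNAi. Its libraries had 26.6, 38.3 and 54.2 normalized counts in LacZ RNAi, 26.8, 32.9 and 47.0 in Pum RNAi, 12.9, 8.29 and 53.5 in Not1 RNAi and 15.2, 9.87 and 10.4 in Pop2 RNAi. Pop2 RNAi did not overlap LacZ RNAi, and in Not1 RNAi library C was as high as the highest control library while A and B were far below. The authors' deposited table gave a fall of 3.29-fold in Pop2 RNAi (log2 -1.72 ± 0.58 (SE), adjusted p = 0.00994, DESeq2) and no call in Not1 RNAi (log2 -0.95 ± 0.58 (SE), adjusted p = 0.166, DESeq2). With library C of LacZ RNAi and of Not1 RNAi left out, limma called both, at -1.54 ± 0.34 (SE), adjusted p = 0.000539, in Not1 RNAi and -1.38 ± 0.31 (SE), adjusted p = 0.000734, in Pop2 RNAi. In Pop2 RNAi, 5 of the 6 removals of a single library ended limma's call, all but that of LacZ RNAi library A, with log2 values of -1.81 to -1.38. In Not1 RNAi, removal of its library C alone made the call (log2 -1.79).

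pirk (FBgn0034647; 2R, 21660967 to 21662995, minus strand) encodes a cytoplasmic inhibitor that binds PGRP-LC and imd and is induced by the pathway as a negative feedback. Its libraries had 122, 88.8 and 112 normalized counts in WT, 60.0, 55.5 and 75.6 in Pum KO1 and 242, 235 and 289 in Pum KO2. All of Pum KO1 were below all of WT and all of Pum KO2 above. The deposited fold changes were 1.70-fold lower in Pum KO1 (log2 -0.77 ± 0.19 (SE)) and 2.38-fold higher in Pum KO2 (log2 1.25 ± 0.17 (SE)), both in the authors' deposited table. These are the values by which pirk had been chosen.

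The knockdown samples are not those by which it was chosen. pirk had 206, 217 and 126 normalized counts in LacZ RNAi, 151, 134 and 106 in Pum RNAi, 134, 111 and 86.5 in Not1 RNAi and 72.6, 72.1 and 52.1 in Pop2 RNAi. Every Pop2 RNAi library was below every control library, while Pum RNAi and Not1 RNAi overlapped the control through LacZ RNAi library C. In the authors' deposited table pirk fell 2.81-fold in Pop2 RNAi (log2 -1.49 ± 0.27 (SE), adjusted p = 3.77e-07, DESeq2) and 1.62-fold in Not1 RNAi (log2 -0.70 ± 0.27 (SE), adjusted p = 0.0229, DESeq2). In Pum RNAi it had log2 -0.51 ± 0.26 (SE), adjusted p = 0.559 (DESeq2, the authors' deposited table). The Pop2 RNAi call held in all 11 limma settings. The Not1 RNAi call was lost by limma without LacZ RNAi library A (log2 -0.60) or B (-0.56) or Not1 RNAi library B (-0.72) or C (-0.54). With the shallow pair left out, limma gave -0.79 ± 0.19 (SE), adjusted p = 0.000989, in Not1 RNAi and -1.69 ± 0.17 (SE), adjusted p = 8.46e-08, in Pop2 RNAi, and called pirk lower in Pum RNAi too (-0.71 ± 0.17 (SE), adjusted p = 0.0164).

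**Figure D4:**
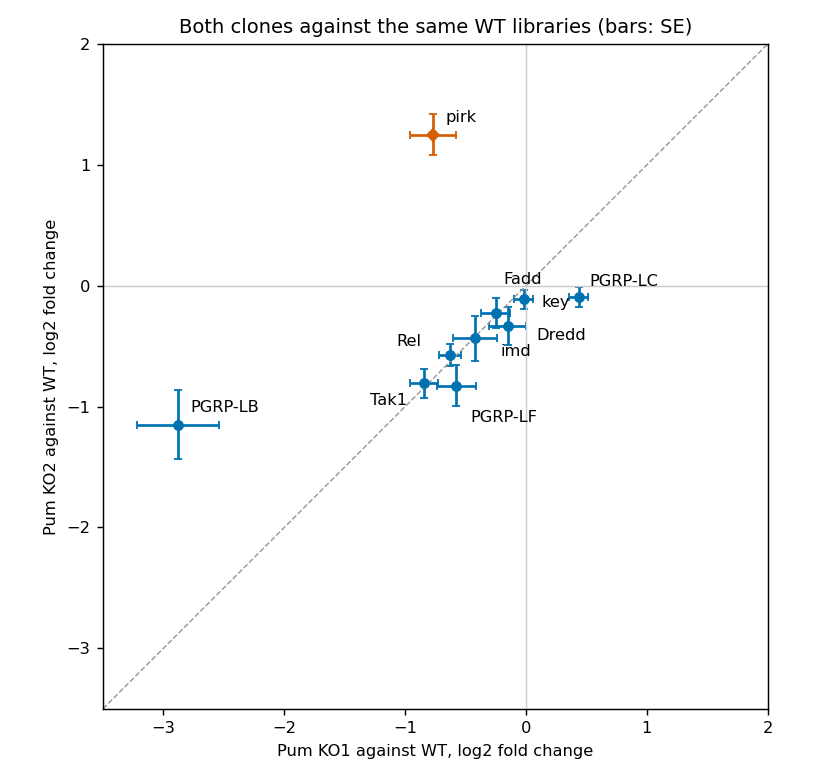
The authors' log2 fold changes of the 10 genes in Pum KO1 (horizontal axis) and Pum KO2 (vertical axis) against the same WT libraries, with SE bars; the dashed line marks equal values and the orange diamond is pirk. pirk is at -0.77 and 1.25, PGRP-LB at -2.88 and -1.15 and PGRP-LC at 0.43 and -0.10, away from the dashed line, near which Rel, Tak1 and imd lie.

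Downstream of the receptor, imd (FBgn0013983; 2R, 18409796 to 18413599, minus strand), the death-domain adaptor that names the pathway, was higher after knockdown of the deadenylase subunits and lower in the clones. Its libraries had 79.8, 56.9 and 52.1 normalized counts in LacZ RNAi, 89.7, 80.5 and 93.4 in Pum RNAi, 135, 131 and 177 in Not1 RNAi and 103, 94.1 and 99.5 in Pop2 RNAi, and all 3 knockdowns lay above the control. By the authors' deposited table it rose 2.20-fold in Not1 RNAi (log2 1.14 ± 0.22 (SE), adjusted p = 1.68e-06, DESeq2) and 1.53-fold in Pop2 RNAi (log2 0.62 ± 0.22 (SE), adjusted p = 0.0154, DESeq2). Pum RNAi, although its libraries did not overlap the control, did not pass (log2 0.45 ± 0.22 (SE), adjusted p = 0.524, DESeq2, the authors' deposited table). By limma the Pop2 RNAi call was lost without LacZ RNAi library B (log2 0.61) or Pop2 RNAi library A (0.64). The values without the shallow pair were 0.97 ± 0.17 (SE), adjusted p = 4.36e-05, in Not1 RNAi and 0.54 ± 0.15 (SE), adjusted p = 0.0044, in Pop2 RNAi (limma).

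In the knockout experiment imd had 136, 117 and 142 normalized counts in WT, 86.6, 114 and 92.7 in Pum KO1 and 84.5, 102 and 105 in Pum KO2, both clones below WT in every library. The falls were 1.34-fold (log2 -0.42 ± 0.18 (SE), adjusted p = 0.0394) and 1.35-fold (log2 -0.44 ± 0.18 (SE), adjusted p = 0.0398) by DESeq2 in the authors' deposited table. Each was close to the threshold, and limma lost it without library A of the clone, at log2 -0.35 in Pum KO1 and -0.34 in Pum KO2.

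Fadd (FBgn0038928; 3R, 22034455 to 22035617, plus strand), the adaptor that brings Dredd to imd, moved against imd in the deadenylase knockdowns. It had 166, 206 and 288 normalized counts in LacZ RNAi, 207, 209.9 and 185 in Pum RNAi, 109, 110.2 and 74.1 in Not1 RNAi and 129.9, 137 and 136 in Pop2 RNAi. Both deadenylase knockdowns lay wholly below the control, in which library C was the highest. By the authors' deposited table Fadd fell 2.12-fold in Not1 RNAi (log2 -1.08 ± 0.23 (SE), adjusted p = 1.27e-05, DESeq2) and 1.62-fold in Pop2 RNAi (log2 -0.69 ± 0.22 (SE), adjusted p = 0.00567, DESeq2). The Not1 RNAi call held in all 11 limma settings. That in Pop2 RNAi was lost without LacZ RNAi library C (log2 -0.46) or without Pop2 RNAi library A (-0.65), B (-0.69) or C (-0.68). Both values were nearer to 0 without the shallow pair, at -0.75 ± 0.14 (SE), adjusted p = 7.32e-05, and -0.46 ± 0.12 (SE), adjusted p = 0.00327 (limma).

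Fadd in the clones was near the threshold. The libraries had 315, 278 and 329 normalized counts in WT, 273, 268 and 229 in Pum KO1 and 274, 260 and 251 in Pum KO2, both clones below WT without overlap. The authors' deposited table gave log2 -0.25 ± 0.12 (SE), adjusted p = 0.0731 and log2 -0.23 ± 0.12 (SE), adjusted p = 0.124 (DESeq2), neither called, where limma gave -0.26 ± 0.10 (SE), adjusted p = 0.0231, and -0.23 ± 0.10 (SE), adjusted p = 0.0472. Of 10 limma settings, 7 called Fadd in Pum KO1 and 3 in Pum KO2.

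Dredd (FBgn0020381; X, 633622 to 635545, minus strand), the caspase that cleaves imd and Rel, was not called in any comparison of the authors' deposited tables. It had 98.5, 106 and 39.0 normalized counts in LacZ RNAi, 91.5, 91.9 and 104 in Pum RNAi, 62.9, 71.3 and 12.3 in Not1 RNAi and 77.4, 84.2 and 99.5 in Pop2 RNAi. The low values of LacZ RNAi and Not1 RNAi are both those of library C, with 18 and 3 reads. Not1 RNAi had log2 -0.63 ± 0.42 (SE), adjusted p = 0.211 (DESeq2, the authors' deposited table). A call was given by limma when the shallow pair was left out (-0.60 ± 0.16 (SE), adjusted p = 0.00302), with no call in Pop2 RNAi (-0.24 ± 0.15 (SE), adjusted p = 0.171). The value in Not1 RNAi rested on single libraries: limma gave log2 -0.93 with all of them, -0.15 without Not1 RNAi library C alone and -1.39 without LacZ RNAi library C alone, none called. In WT, Pum KO1 and Pum KO2 the libraries had 176, 192 and 202, 188, 186 and 134 and 140.2, 152 and 161 normalized counts. Pum KO2 lay below WT, with log2 -0.33 ± 0.16 (SE), adjusted p = 0.074 (DESeq2, the authors' deposited table) and -0.33 ± 0.13 (SE), adjusted p = 0.0266, by limma. Of 10 limma settings, 6 called Dredd in Pum KO2.

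Tak1 (FBgn0026323, X, 20515908 to 20524928, minus strand) is a MAP kinase kinase kinase that acts on both the IκB kinase and the JNK branch. It rose in the deadenylase knockdowns and fell in the clones. In Pum RNAi Tak1 was not called (log2 -0.17 ± 0.24 (SE), adjusted p = 0.862, DESeq2, the authors' deposited table). Its libraries had 263, 253 and 197 normalized counts in LacZ RNAi, 209.9, 217 and 211 in Pum RNAi, 414, 374 and 700.1 in Not1 RNAi and 377, 380.2 and 314 in Pop2 RNAi. Both deadenylase knockdowns were above all control libraries, and library C of Not1 RNAi was far above A and B. Its rise was 2.03-fold in Not1 RNAi (log2 1.02 ± 0.24 (SE), adjusted p = 8.16e-05, DESeq2) and 1.49-fold in Pop2 RNAi (log2 0.58 ± 0.24 (SE), adjusted p = 0.0392, DESeq2), per the authors' deposited table. Leaving out the shallow pair, the Not1 RNAi value dropped to 0.61 ± 0.12 (SE), adjusted p = 0.00018 (limma), and the Pop2 RNAi value was 0.46 ± 0.11 (SE), adjusted p = 0.00116. Each of the 6 removals of a single library ended limma's call in Pop2 RNAi, at log2 0.46 to 0.68.

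In the clones Tak1 fell. It had 383, 410.2 and 394 normalized counts in WT, 208, 209 and 247 in Pum KO1 and 230.3, 236 and 212 in Pum KO2. The clones lay on top of each other and far below WT. Falls in the authors' deposited table were 1.80-fold (log2 -0.85 ± 0.12 (SE), adjusted p = 2.31e-12, DESeq2) and 1.75-fold (log2 -0.81 ± 0.12 (SE), adjusted p = 7.49e-11, DESeq2). The interval of the difference between the clones was -0.23 to 0.16 on the log2 scale (95%, limma).

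key (FBgn0041205; 2R, 24785514 to 24787411, minus strand), the IκB kinase subunit, rose in the deadenylase knockdowns only, as far as the authors' calls go. Its libraries had 748, 810.3 and 731 normalized counts in LacZ RNAi, 754, 797 and 751 in Pum RNAi, 1413, 1289 and 889.5 in Not1 RNAi and 1217, 1244 and 1286 in Pop2 RNAi, the last a group of narrow spread wholly above the control. Rises in the authors' deposited table were 1.59-fold in Not1 RNAi (log2 0.67 ± 0.16 (SE), adjusted p = 0.000172, DESeq2) and 1.64-fold in Pop2 RNAi (log2 0.71 ± 0.16 (SE), adjusted p = 7.60e-05, DESeq2). The Pop2 RNAi call held in all 11 limma settings and that in Not1 RNAi in 10; it was lost when libraries were scaled to total reads (log2 0.48), a scaling that moved the median of all genes in that comparison by -0.14. With the shallow pair left out limma gave 0.79 ± 0.10 (SE), adjusted p = 7.44e-07, in Not1 RNAi and 0.68 ± 0.09 (SE), adjusted p = 2.31e-06, in Pop2 RNAi. In WT, Pum KO1 and Pum KO2 the libraries had 949, 892 and 862, 896, 896 and 874 and 828, 868 and 805 normalized counts. Both clones overlapped WT, with log2 -0.02 ± 0.08 (SE), adjusted p = 0.861 and log2 -0.11 ± 0.08 (SE), adjusted p = 0.252 (DESeq2, the authors' deposited table).

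Rel (FBgn0014018; 3R, 9044183 to 9047977, minus strand), the NF-κB factor at the end of the pathway, fell in both clones. Its libraries had 1030, 1159 and 972 normalized counts in WT, 708, 723 and 614 in Pum KO1 and 697, 713 and 715 in Pum KO2, with a wide gap below WT. In the authors' deposited table the falls were 1.54-fold (log2 -0.63 ± 0.09 (SE), adjusted p = 2.39e-11, DESeq2) and 1.49-fold (log2 -0.58 ± 0.09 (SE), adjusted p = 1.70e-09, DESeq2). The clones differed by -0.06 on the log2 scale, with a 95% interval of -0.22 to 0.11 (limma).

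After knockdown Rel had 638, 721 and 612 normalized counts in LacZ RNAi, 524, 539.9 and 503 in Pum RNAi, 585, 574 and 700.1 in Not1 RNAi and 605, 702 and 610.4 in Pop2 RNAi. Pum RNAi lay below the control without overlap, and the deadenylase knockdowns overlapped it. In Pum RNAi the authors' deposited table gave log2 -0.33 ± 0.13 (SE), adjusted p = 0.295 (DESeq2), the lowest adjusted p of the 10 genes there, and limma without the shallow pair gave -0.38 ± 0.10 (SE), adjusted p = 0.0247. Not1 RNAi and Pop2 RNAi had log2 -0.11 ± 0.13 (SE), adjusted p = 0.505 and log2 -0.04 ± 0.13 (SE), adjusted p = 0.818 (DESeq2, the authors' deposited table), and by limma without the shallow pair -0.23 ± 0.11 (SE), adjusted p = 0.0679, and -0.09 ± 0.10 (SE), adjusted p = 0.438. Over the 7 group means, centred within each experiment, the genes most like Rel were CG7352 (Pearson r = 0.988), GCC88 (0.987) and Wdr37 (0.978), and those most like pirk were B4 (0.984), CG8993 (0.891) and Flo2 (0.890), among 5287 genes with a mean of at least 50 in every group. These are a description, since groups share controls and libraries. They are the highest correlations among 5287 genes over only 7 means, so high values are found by the search itself. The profile of pirk also includes the clone values by which it was chosen.

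Set directly against each other, Not1 RNAi and Pop2 RNAi differed in none of the 10 genes by limma over all libraries, where 5.41% of 7046 genes were called, 2.65% higher and 2.75% lower; 4 of the 10 had an unadjusted p under 0.05. The difference for pirk (Not1 RNAi minus Pop2 RNAi) was log2 0.74 ± 0.25 (SE), adjusted p = 0.101, with a 95% interval of 0.18 to 1.29, and that for imd 0.56 ± 0.19 (SE), adjusted p = 0.103, with an interval of 0.14 to 0.99. Of the 10 genes, 3 without the shallow pair were called higher in Not1 RNAi (31.9% of 7030 genes in either direction, 16.6% higher and 15.3% lower). These were pirk (0.90 ± 0.17 (SE), adjusted p = 0.000591), imd (0.42 ± 0.15 (SE), adjusted p = 0.0419) and PGRP-LF (0.36 ± 0.13 (SE), adjusted p = 0.0434), all by limma. Between the clones limma called 2 of 9, PGRP-LC and PGRP-LB, where 24.3% of 7371 genes were called, 11.5% higher and 12.8% lower in Pum KO1, and both calls held in all 10 settings.

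Other genes of recognition and signalling were read from lists. The recognition list holds 10 further PGRP genes and 3 GNBP genes, not all of which act in the Imd pathway. In Not1 RNAi 5 of 7 tested genes fell and none rose (24.2% of all tested genes were lower; median log2 -1.28, against 0.0075 for all tested genes); they were GNBP1, GNBP2, GNBP3, PGRP-LE and PGRP-LA. In Pop2 RNAi 3 of 7 fell (20.1% of all were lower; median -1.12, all genes -0.053), and these were the 3 GNBP genes, with none of the 4 tested PGRP genes called. GNBP2, a member of the family of Gram-negative binding proteins, went from a mean of 163 to 17.1 in Not1 RNAi and 15.6 in Pop2 RNAi (adjusted p = 5.24e-20 and 1.99e-22, DESeq2, the authors' deposited table), and it fell 3.07-fold in Pum KO1 and 2.04-fold in Pum KO2. GNBP3, a receptor for fungal glucan, fell 8.75-fold in Not1 RNAi, 2.97-fold in Pop2 RNAi, 4.21-fold in Pum KO1 and 1.30-fold in Pum KO2 in the authors' deposited table. GNBP1, which acts with PGRP-SA in the Toll pathway, fell 3.13-fold and 2.65-fold in the authors' deposited table (DESeq2 adjusted p = 2.73e-05 and 0.000183). In the clones 4 of 7 fell in each (25.5% and 23.5% of all were lower), and 1, PGRP-LA, rose in Pum KO1 (medians -0.36 in Pum KO1 and -0.425 in Pum KO2, against -0.068 and -0.039 for all tested genes). PGRP-SA, a secreted receptor for lysine-type peptidoglycan, fell from a mean of 185 to 16.6 in Pum KO1 and 30.6 in Pum KO2 (adjusted p = 9.36e-41 and 1.79e-27, DESeq2, the authors' deposited table). PGRP-LE, the intracellular receptor of the Imd pathway, fell 1.69-fold in Not1 RNAi, 1.28-fold in Pum KO1 and 1.34-fold in Pum KO2 (adjusted p = 0.00294, 0.00235 and 0.000298, DESeq2, the authors' deposited table).

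Among 8 other Imd signalling genes, 2 rose and 1 fell in Not1 RNAi (50% of all tested genes were called) and 1 rose in Pop2 RNAi (39.0% of all). Tab2, the partner of Tak1, rose 3.48-fold in Not1 RNAi and 2.23-fold in Pop2 RNAi in the authors' deposited table (adjusted p = 1.04e-08 and 0.000496, DESeq2), and fell 1.33-fold in Pum KO1 and 1.42-fold in Pum KO2. In each clone 3 rose and 3 fell (48.4% and 44.8% of all were called). Uev1A, a ubiquitin-conjugating enzyme variant, rose 1.26-fold in Pum KO1 and 1.13-fold in Pum KO2, and akirin, a nuclear cofactor of Rel, went from a mean of 10823 in WT to 13373 and 13822, in the authors' deposited table; the ubiquitin-conjugating enzymes eff (1.15-fold, Pum KO1) and ben (1.15-fold, Pum KO2) were the others that rose. sick, which is needed for Rel to act, rose 4.28-fold in Not1 RNAi and fell 1.88-fold in Pum KO1 and 2.25-fold in Pum KO2, in the authors' deposited table. Diap2, the ubiquitin ligase that modifies imd and Dredd, fell 1.47-fold in Not1 RNAi, 1.78-fold in Pum KO1 and 1.47-fold in Pum KO2, in the authors' deposited table.

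Of 9 other inhibitors of the pathway, 5 rose and none fell in Not1 RNAi, and 4 rose and none fell in Pop2 RNAi (25.7% and 18.8% of all tested genes were higher; medians 0.58 and 0.64, against 0.0075 and -0.053 for all). casp (Caspar), which blocks cleavage of Rel, went from a mean of 1365 in LacZ RNAi to 4436 in Not1 RNAi and 3286 in Pop2 RNAi (adjusted p = 1.54e-27 and 2.36e-15, DESeq2, the authors' deposited table). trbd (Trabid), a deubiquitinase that acts on Tak1, rose 2.71-fold and 1.95-fold, and CYLD, another deubiquitinase, 1.84-fold and 1.56-fold, in the authors' deposited table. In the clones the inhibitors went both ways, 3 up and 4 down in Pum KO1 and 2 up and 3 down in Pum KO2 (48.4% and 44.8% of all were called). casp fell 1.50-fold in Pum KO1 and 1.62-fold in Pum KO2, trbd 1.43-fold and 1.44-fold, and CYLD 1.25-fold and 1.31-fold, in the authors' deposited table. dnr1, which lowers Dredd, rose 3.38-fold in Not1 RNAi, 1.82-fold in Pum KO1 and 2.24-fold in Pum KO2, and nub, a POU-domain repressor of immune genes, rose 2.04-fold in Pum KO1, in the authors' deposited table. scny, also a deubiquitinase, rose 1.32-fold in Pum KO1 and 1.15-fold in Pum KO2, in the authors' deposited table. None of these 3 lists had a call in Pum RNAi, where 0.733% of all tested genes were called. By limma without the shallow pair there were 5 lower and 1 higher of 6 recognition genes in Not1 RNAi and 5 higher of 8 inhibitors, and in Pop2 RNAi 3 lower of 6 and 5 higher and 1 lower of 8; among 6 signalling genes there were 2 higher and 1 lower in each of these knockdowns. In that setting 71.6% of all genes were called in Not1 RNAi and 65.6% in Pop2 RNAi.

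**Figure D5:**
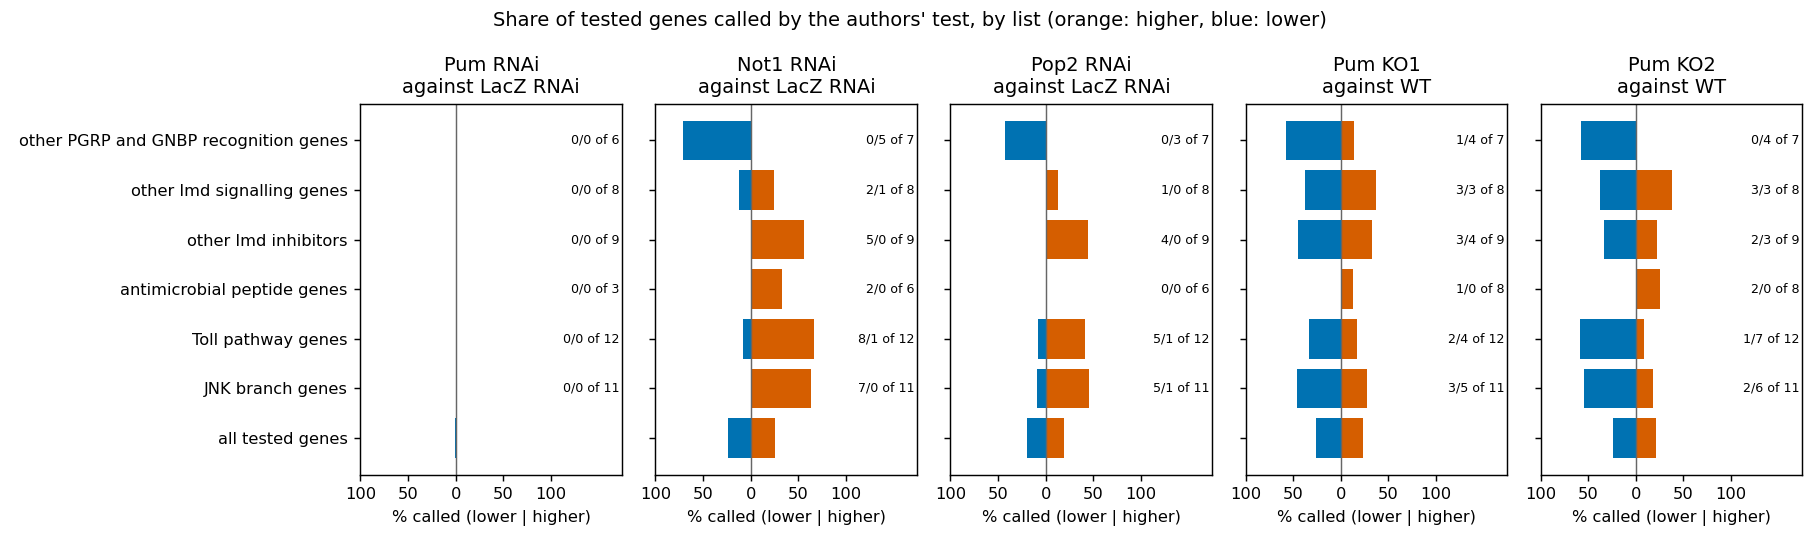
Share (%) of the tested genes of 6 lists, and of all tested genes, called higher (orange, to the right) or lower (blue, to the left) by the authors' test in the 5 comparisons; the text in each row gives the genes higher, the genes lower and the genes tested. Of the other PGRP and GNBP genes 5 of 7 were lower in Not1 RNAi and 4 of 7 in each clone, and of the other Imd inhibitors 5 of 9 were higher in Not1 RNAi.

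Most of the 15 antimicrobial peptide genes examined, the outputs of the pathway, were at low levels. DptA, DptB, Def and Mtk, among them the diptericins that serve as readouts of Imd signalling, were listed at 0 in all 7 groups. CecC, a cecropin, was the most abundant, with means of 25.5 normalized counts in LacZ RNAi, 47.4 in Pum RNAi, 47.9 in Not1 RNAi and 43.6 in Pop2 RNAi, and of 49.2 in WT, 75.4 in Pum KO1 and 52.2 in Pum KO2. It rose 2.17-fold in Not1 RNAi and 1.53-fold in Pum KO1 in the authors' deposited table (adjusted p = 0.00811 and 0.0179, DESeq2). Not1 RNAi overlapped the control in CecC, with libraries of 56.1, 67.1 and 20.6 against 18.7, 23.0 and 34.7.

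Dro (Drosocin) separated the clones in level. Its libraries had 6.45, 3.29 and 7.38 normalized counts in WT, 12.7, 8.36 and 13.9 in Pum KO1 and 33.4, 36.0 and 40.5 in Pum KO2. In the authors' deposited table it rose 6.55-fold in Pum KO2 (adjusted p = 5.69e-07, DESeq2) and was not called in Pum KO1; the difference between the clones was not tested for this gene. AttB, an attacin, rose 4.30-fold in Pum KO2 (adjusted p = 0.00576, DESeq2, the authors' deposited table), from a mean of 3.64 to 15.4, and it was called in Not1 RNAi, where its mean was 3.79 and the control was listed at 0. Of the 15 genes, the authors' test covered 3 in Pum RNAi, 6 in Not1 RNAi and in Pop2 RNAi, and 8 in each clone. Higher calls were 2 in Not1 RNAi, 1 in Pum KO1 and 2 in Pum KO2, where 25.7%, 22.9% and 21.3% of all genes rose. Pum RNAi and Pop2 RNAi had no call. No tested gene was called lower, but most had control means near 0, which leaves little room for a fall. CecC alone passed limma's filter without the shallow pair, and it was called higher in all 3 knockdowns. That setting called 8.35% of all genes in Pum RNAi, 71.6% in Not1 RNAi and 65.6% in Pop2 RNAi. It leaves out the highest LacZ RNAi library of CecC (34.7) and the lowest Not1 RNAi library (20.6). With all libraries, the authors' test called CecC in Not1 RNAi alone among the knockdowns.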

How the data were processed

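RNA was measured in 21 samples of DL1 cells, 12 of the knockdown and 9 of the knockout experiment. Libraries were made by ClickSeq from poly(A)-selected RNA and sequenced as single-end reads, per the labels' protocols; ClickSeq ends reverse transcription at random with azido-nucleotides and attaches the adapter by click chemistry. The submitters' processing notes name fastp 0.14.1, HISAT2 2.1.0, UMI-tools 1.0.1, DESeq2 1.23.110, the build dm6 and featureCounts, the last without a version, and state no settings. The deposited signal columns are the authors' group means of normalized counts, per the file headers; levels per kb were computed from them with the deposited gene length. The log2 fold changes were fitted with DESeq2 by the authors and deposited with their standard errors, which are treated as score values. The deposited p-value columns are the authors' DESeq2 p-values and adjusted p-values. The 2 tables were normalized separately, so tests stayed within a table. In each of them 7 lines named no gene, with 0.045% and 0.067% of the normalized counts, and were left out.

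The main test of each comparison with LacZ RNAi or WT was the authors' adjusted p under 0.05, as planned for files without counts. Where a group mean is the average of 3 whole numbers of reads, each divided by its own size factor, the 15 digits of the deposited mean allow only certain sets of reads. For each group the value of 1 read in each library was found from the rarest genes, and every gene was then solved for 3 whole numbers (Python 3.11.15, numpy 2.4.6). Each gene under the limit had exactly 1 solution; 80 to 158 genes per group were too abundant, and resolved genes held 62.7% to 75.9% of the normalized counts. On simulated means 70689 of 70695 genes were resolved and none wrongly, and 12 of 14000 values that fit no such sum were resolved by chance. The size factors found differed by at most 1.54% from median-of-ratios factors computed from the resolved reads. The resolved values were tested with limma 3.58.1 (R 4.3.3; log2 of the normalized count + 1, genes with a mean of at least 10, trended empirical Bayes, Benjamini-Hochberg adjustment over all genes). limma is the test for Not1 RNAi against Pop2 RNAi and Pum KO1 against Pum KO2 and an alternative elsewhere. In simulated data it recovered 90% of 2-fold and 100% of 4-fold changes. The designs were Pum RNAi against LacZ RNAi (6972 genes) and Pum KO1 against WT (7486 genes). It also called 9 and 11 unchanged genes there, in the same order. These values hold for the simulated data only. In the actual libraries of Pum RNAi against LacZ RNAi, limma's SE (log2, all libraries) ran from 0.14 for Rel to 0.55 for PGRP-LB and Dredd. The share of changes recovered at that spread was not tested.

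The labels call the samples biological replicates, and nothing says how cultures were kept apart, so p-values measure the spread between these samples. Intervals are 95% intervals of the limma fit. The 10 genes, the lists of other genes and the alternatives were chosen with earlier results of these data known. Named from each other list were up to 3 called genes per comparison with the lowest adjusted p and a mean of at least 20 in 1 of its groups. AttB, DptA, DptB, Def, Mtk, PGRP-LA, akirin, eff, ben and grnd were named after their values were seen. So were the markers Pxn, drpr, Sr-CI, vkg, Col4a1, ush, crq, He, Ppn, Syn, elav, Appl, aub, Act57B, Mhc, Amy-p and apolpp. Coordinates are those of the files, equal for all 10 genes to an Ensembl annotation of the same assembly. Alternatives were an adjusted p of 0.01, adjustment over every gene with a p, limma with no filter, a pseudocount of 5, scaling to total reads, each library left out, and library C of LacZ RNAi and of Not1 RNAi, the shallowest, left out together. For the other lists this last setting was added after the data had been seen.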

Additional observations from a re-analysis of the deposited data

Results flagged for a closer look

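The clones differed in 2 of the 9 genes for which the difference itself was tested over libraries, where limma called 24.3% of 7371 genes. PGRP-LC was higher in Pum KO1 than in Pum KO2 by 0.523 on the log2 scale (95% interval 0.36 to 0.69, limma adjusted p = 2.57e-05), with every library of Pum KO1 above every library of Pum KO2. PGRP-LB differed by -1.662 (Pum KO1 minus Pum KO2, 95% interval -2.21 to -1.12, limma adjusted p = 4.17e-05), again without overlap. The clones did not overlap in key either, which was not called, and the share of all genes without overlap was not computed here. The calls of PGRP-LC and PGRP-LB held in all 10 settings.

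pirk drew attention because all libraries of Pum KO1 were below WT (log2 -0.7693 in the authors' deposited table) and all libraries of Pum KO2 above it (log2 1.249). This difference was not tested, since the gene had been chosen for it.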

How the results depend on the processing

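No paired analysis was possible because the deposited columns carry no replicate number and libraries A, B and C cannot be matched to the numbers in the labels. Leaving out library C of LacZ RNAi and of Not1 RNAi together moved the number of the 10 genes called from 0 to 2 in Pum RNAi, from 5 to 9 in Not1 RNAi and from 0 to 3 in Not1 RNAi against Pop2 RNAi; in Pop2 RNAi it gave 8 against 7. limma with all libraries gave the same starting counts. The share of all genes it called was 0.0142%, 54.5%, 5.41% and 39.1% with all libraries and 8.35%, 71.6%, 31.9% and 65.6% without this pair, in the same order. Leaving out 1 library at a time (limma) gave 2 to 5 calls in Pop2 RNAi: 5 without LacZ RNAi library A or C, 3 without LacZ RNAi library B or Pop2 RNAi library C, 4 without Pop2 RNAi library B and 2 without its library A. The ranges elsewhere were 0 to 0 in Pum RNAi, 4 to 6 in Not1 RNAi, 0 to 0 between these deadenylase knockdowns, 6 to 7 in Pum KO1, 4 to 6 in Pum KO2 and 2 to 2 between the clones. With 1 library left out limma called 28.2% to 42.3% of all genes in Pop2 RNAi, 50.6% to 58.7% in Not1 RNAi, 0% to 0.0426% in Pum RNAi, 0.893% to 6.92% between the deadenylase knockdowns, 61.0% to 64.2% in Pum KO1, 56% to 60.0% in Pum KO2 and 18.0% to 23.8% between the clones. The cause was not tested.

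In Pop2 RNAi, scaling to total reads ended the calls of PGRP-LF (log2 -0.63) and Fadd (-0.60), and limma without a filter those of PGRP-LB (-1.63) and Tak1 (0.59). Of the values of single genes under these alternatives, 32 lost and 29 gained a call, 29 uncalled ones moved by more than their error, and 0 called ones changed sign. The other 649 showed none of these changes. They include ratios of group means, which have no p, and some uncalled values that changed sign. In Pum RNAi, PGRP-LF went from log2 -0.126 to 0.036 without LacZ RNAi library A, and Dredd from 0.212 to -0.095 without LacZ RNAi library C. Scaling to total reads moved the median of all genes by 0.12 in Pum RNAi, -0.14 in Not1 RNAi, 0.070 in Pop2 RNAi and -0.21 in Not1 RNAi against Pop2 RNAi. Depth limits PGRP-LB and Dredd most, and intervals cover these samples only.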

Other observations

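Genes of 2 branches next to the Imd pathway were read the same way. Of 12 tested Toll pathway genes, 8 rose and 1 fell in Not1 RNAi, where 25.7% of all tested genes rose and 24.2% fell, and 5 rose and 1 fell in Pop2 RNAi, where 18.8% rose and 20.1% fell (list medians 1.18 and 0.46 on the log2 scale, all genes 0.0075 and -0.053). The receptor gene Tl rose 4.90-fold and 1.88-fold, Myd88, its adaptor, rose 4.02-fold in Not1 RNAi, 2.02-fold in Pop2 RNAi and, from a mean of 803.7 to 992.7, in Pum KO1, and tub, the adaptor next to it, fell 3.20-fold in Not1 RNAi, 1.82-fold in Pop2 RNAi and 1.45-fold in Pum KO2, all in the authors' deposited table. In Pum KO2 1 rose and 7 fell (21.3% and 23.5% of all genes), and in Pum KO1 2 rose and 4 fell (22.9% and 25.5% of all genes). spz, the Toll ligand, rose 3.14-fold in Not1 RNAi and fell 2.87-fold in Pum KO1 and 2.11-fold in Pum KO2, and modSP, a protease upstream of it, 9.27-fold and 3.95-fold, in the authors' deposited table. grass, another of these proteases, fell 3.46-fold and 5.83-fold in the clones and rose 1.84-fold in Not1 RNAi. pll, the kinase of the pathway, rose 2.12-fold in Not1 RNAi and 1.89-fold in Pop2 RNAi and fell 1.54-fold in Pum KO1 and 1.36-fold in Pum KO2. dl, its NF-κB factor, rose 2.41-fold and 2.03-fold in these knockdowns and fell 1.41-fold in Pum KO2, and cact, the inhibitor of dl, rose 1.37-fold in Not1 RNAi, 1.67-fold in Pum KO1 and 1.35-fold in Pum KO2, all in the authors' deposited table.

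The list of 11 JNK branch genes holds a ligand, the receptor genes wgn and grnd, kinases and other genes, not all of which act below Tak1. Of these 11 genes, 7 rose and none fell in Not1 RNAi, and 5 rose and 1 fell in Pop2 RNAi (medians 1.54 and 0.34). The counts are to be read against the same shares of all genes. egr, a ligand of the tumour necrosis factor family, rose 6.23-fold in Not1 RNAi and 3.92-fold in Pop2 RNAi, in the authors' deposited table. In the clones egr went opposite ways, from a mean of 141.5 in WT to 432.5 in Pum KO1 (3.06-fold higher) and 73.9 in Pum KO2 (1.92-fold lower), both called in the authors' deposited table; the difference between the clones was not tested for this gene. The receptor gene wgn rose 4.11-fold in Pum KO1 and 2.84-fold in Pum KO2 and fell 1.92-fold in Pop2 RNAi, in the authors' deposited table. grnd, the other receptor gene, went from a mean of 0.693 in LacZ RNAi to 14.6 in Not1 RNAi and 17.65 in Pop2 RNAi. Both rises were called by the authors' test (adjusted p = 0.000351 and 0.000359, DESeq2). The kinase gene msn rose 3.49-fold in Not1 RNAi and 2.48-fold in Pop2 RNAi and fell 1.60-fold in Pum KO1, in the authors' deposited table. Jra (Jun) rose 3.64-fold and 2.19-fold in these knockdowns and fell 1.88-fold in Pum KO1 and 1.40-fold in Pum KO2, and kay (Fos) rose 3.18-fold and 2.19-fold and fell 1.38-fold and 1.50-fold, in the authors' deposited table. hep, the JNK kinase, fell 1.79-fold in Pum KO1 and 1.63-fold in Pum KO2. It was among 5 and 6 genes of this list that fell there, with 3 and 2 that rose. Without the shallow pair of libraries, limma gave 7 higher and 1 lower of 8 Toll genes and 6 higher and 1 lower of 10 JNK genes in Not1 RNAi. In Pop2 RNAi it gave 4 higher and 1 lower of 8, and 6 higher and 1 lower of 10; 71.6% and 65.6% of all genes were called in these comparisons. In Pum RNAi the authors' test called no gene of either list, with 0.733% of all tested genes called. There limma without that pair called 1 JNK gene higher and 1 lower, with 8.35% of all genes called.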
